A study of Mus musculus with 10 samples.

Results

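The 9 genes described here encode receptors of the epidermal growth factor (EGF) family and their ligands, and were chosen by gene symbol from the 49568 genes of the table. They are 6 ligands (*Hbegf*, *Tgfa*, *Btc*, *Ereg*, *Areg* and *Egf*) and 3 receptors (*Egfr*, *Erbb2* and *Erbb3*). Bulk RNA sequencing covered reactive cholangiocytes, the bile duct cells that multiply in the injured liver, of 5 *Ctl* and 5 *Smad4del* mice, with 1 library per mouse. *Smad4del* mice carried floxed *Smad4* alleles (Smad4fl/fl in the labels) and *Alb-Cre*, a Cre driven by the albumin promoter in hepatocytes and bile duct cells. *Ctl* mice are given as Smad4wt/wt in the labels and the study describes its control cohorts as lacking *Alb-Cre*, so by that account the cohorts also differ in Cre, whose own effect cannot be told apart from that of *Smad4*. All mice were on a mixed genetic background, with littermates as controls where possible, and age and sex are not given in the sources used here. Every mouse was fed 0.1% DDC, a compound that injures bile ducts, for 2 weeks, so the data hold no uninjured liver. EPCAM+/CD45-/TER119- cells were then sorted from the digested livers. The labels also carry a cell line tag and a protocol for cultured cells, and the samples are taken here as cells sorted from mice, as the study's methods have it.

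EGF family ligands are made as membrane-bound precursors, which metalloproteases of the ADAM family cut to release the growth factor. Released ligand pairs receptors on the cell surface, and the pair signals through RAS and ERK kinases, PI3 kinase and STAT3. In the liver these ligands and receptors are known for their part in regeneration and in the growth of bile duct cells. *Egf*, *Tgfa* and *Areg* products bind EGFR, those of *Hbegf*, *Btc* and *Ereg* bind EGFR and ERBB4, ERBB2 has no known ligand and serves as the partner of the others, and ERBB3 binds neuregulins and has a weak kinase of its own.

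Of the 9 genes 8 were tested, and *Egfr* alone passed the test between the cohorts, beside 7.12% of all genes tested. The call was near the threshold and held under 14 of 26 alternative settings. It was lost in 7 of 10 fits that left out 1 mouse. *Egfr* was lower in *Smad4del* cells, at 0.57 times the *Ctl* mean. Its partners *Erbb2* and *Erbb3* and the abundant ligands *Hbegf* and *Btc* did not pass. *Tgfa* had a *Smad4del* mean of 1.28 times the *Ctl* mean and did not pass after adjustment. *Ereg*, at very low levels, was lower in every *Smad4del* mouse than in any *Ctl* mouse. Such a separation held for 4.59% of all genes tested. *Ereg* too did not pass after adjustment.

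The values are normalized counts, in which the reads of a gene were scaled by 1 factor for each mouse, and gene length was not corrected for. The reads on genes numbered 16249719 to 21277339 per *Ctl* mouse and 16734672 to 19710560 per *Smad4del* mouse. Genes averaging 10 or more normalized counts in the 10 mice were tested with limma on log2(normalized count + 1), a scale on which the change of a low gene depends on the added 1 and is enlarged where a mouse is at 0, and a log2 fold change is *Smad4del* minus *Ctl*. A Benjamini-Hochberg adjusted p under 0.05 was called. Of 14870 genes tested, 362 were called higher and 697 lower, which is 7.12% in all, 2.43% for higher and 4.69% for lower calls. With quantile scaling the calls were 579 higher and 607 lower, and with median scaling 626 and 639. Of the 9 family genes, 8 were tested and 1 was called, while *Areg* lay under the minimum. For single genes an exact permutation test (two-sided) was run too, and with 5 mice against 5 it can give no p below 0.00794. The targeted gene followed the labels: *Smad4* had normalized counts of 2969 to 3714 in *Ctl* mice and of 687 to 1031 in *Smad4del* mice (limma log2 fold change -1.96 with a standard error of 0.123, adjusted p = 1.09e-05). Values by mouse are given below in the order A5215, A5219, A5221, A5626 and A5628 for *Ctl* and A5216, A5217, A5218, A5447 and A5624 for *Smad4del*.

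All 15 cholangiocyte markers listed were detected in both cohorts, and their mean log2 level was 12.8 to 13.2 in *Ctl* and 13.0 to 13.3 in *Smad4del* mice (exact permutation p = 0.643, n = 5 per cohort). Their summed normalized counts were 503183 to 701968 in *Ctl* and 694753 to 850269 in *Smad4del* mice, which overlapped. Of the 15, *Krt19* (limma log2 fold change 0.53, adjusted p = 0.0270) and *Onecut1* (0.62, 0.0413) were called higher, *Sctr* was called lower (-1.43, 0.0124) and 12 did not pass. Markers of other cells were present as well. The 12 endothelial markers summed to 18167 to 52290 normalized counts in *Ctl* mice and to 6146 to 13005 in *Smad4del* mice, with no overlap, and 10 of the 12 were called lower. The 10 stellate cell or fibroblast markers summed to 17553 to 45659 and 8127 to 14464, also with no overlap, and 2 were called lower. The 6 mesothelial markers summed to 8886 to 20537 and 7077 to 13238, with overlap, and 0 were called. Their mean log2 level was 9.0 to 10.8 in *Ctl* and 8.7 to 10.0 in *Smad4del* mice (exact permutation p = 0.0476, n = 5 per cohort). The 13 macrophage markers ranged from 14816 to 293115 in *Ctl* mice, highest in A5215, and from 5623 to 85931 in *Smad4del* mice. The 15 hepatocyte markers ranged from 76781 to 107196 and from 82249 to 124285. In these bulk samples, fewer cells of a type and less RNA per cell cannot be told apart.

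*Egfr* lies on the plus strand of chromosome 11 at 16752203 to 16918158 of GRCm38 (GENCODE M21). Because it was the member whose level differed, the 250 bases before its annotated start (chr11:16751953-16752202, plus strand, RefSeq entry on GRCm38.p6) are shown, with matches to GGGCGG, the core of a GC box, in capitals.
Egfr, 250 bases before the start: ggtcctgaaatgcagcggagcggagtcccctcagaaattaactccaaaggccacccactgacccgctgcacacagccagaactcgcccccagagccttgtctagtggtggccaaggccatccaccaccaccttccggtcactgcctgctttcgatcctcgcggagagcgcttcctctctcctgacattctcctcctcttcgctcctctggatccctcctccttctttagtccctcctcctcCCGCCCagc
The stretch held 1 match to GGGCGG, read as CCGCCC on this strand, and none to CAGAC on either strand. CAGAC is 1 of the motifs that SMAD proteins bind, and shorter or other forms were not searched. Its G and C content was 60.8%, against a median of 52.4% over the 32851 such windows of the mouse table. GGGCGG was found on either strand in 32.7% of these windows and CAGAC in 42.2%, so both are common letters. The table held 6 of the 9 genes. *Tgfa* had 2 matches to GGGCGG and 1 to CAGAC, *Areg* had 1 to GGGCGG, 1 of the 2 windows of *Egf* had 1 to CAGAC, and *Btc* and *Erbb2* had neither. A match in letters is a description and not a binding site, and its absence says only that these letters are not in this window.

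Among the receptors, *Egfr* RNA was lower in *Smad4del* cells. *Egfr* encodes the receptor that most ligands of the family bind. The *Ctl* mice had 1297, 1395, 1542, 1342 and 1984 normalized counts, and the *Smad4del* mice had 754, 708, 504, 1221 and 1120. The cohorts did not overlap, which held for 8.09% of all genes tested (4.59% with *Smad4del* lower). The highest *Smad4del* mouse, A5447, was close to the lowest *Ctl* mouse, A5215. The mean fell from 1512 ± 280 (SD, n = 5) to 861 ± 300 (SD, n = 5), a log2 fold change of -0.87 (standard error 0.223, 95% confidence interval -1.35 to -0.38, adjusted p = 0.0394 from limma). The exact permutation test of this gene alone gave p = 0.00794, the smallest that 5 mice against 5 allow. By mean normalized count *Egfr* was number 2796 among the genes of *Ctl* cells and number 4828 among those of *Smad4del* cells.

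The call was near the threshold and depended on single mice and on the test. The adjusted p was over 0.05 in limma without A5215, A5221, A5626, A5628, A5216, A5217 or A5218 (0.0548 to 0.0968, log2 fold changes -0.92 to -0.69), and under 0.05 without A5219, A5447 or A5624 (0.0184 to 0.0484). On reads recovered for all 10 mice, DESeq2 gave an adjusted p of 0.00556 and edgeR one of 0.0598. The cohort also went with the endothelial marker level and with the stellate cell or fibroblast marker level. Neither level overlapped between the cohorts, so that their parts in the *Egfr* level cannot be told apart. Stellate and mesothelial marker levels were not run as covariates. With the endothelial level as a covariate the log2 fold change of *Egfr* was -0.22 (standard error 0.427, adjusted p = 0.995 from limma). In that fit limma called 0 genes of the table, with 737 at an unadjusted p under 0.05. With the macrophage marker level as a covariate it was -1.24 (adjusted p = 0.0119 from limma).

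**Figure D1:**
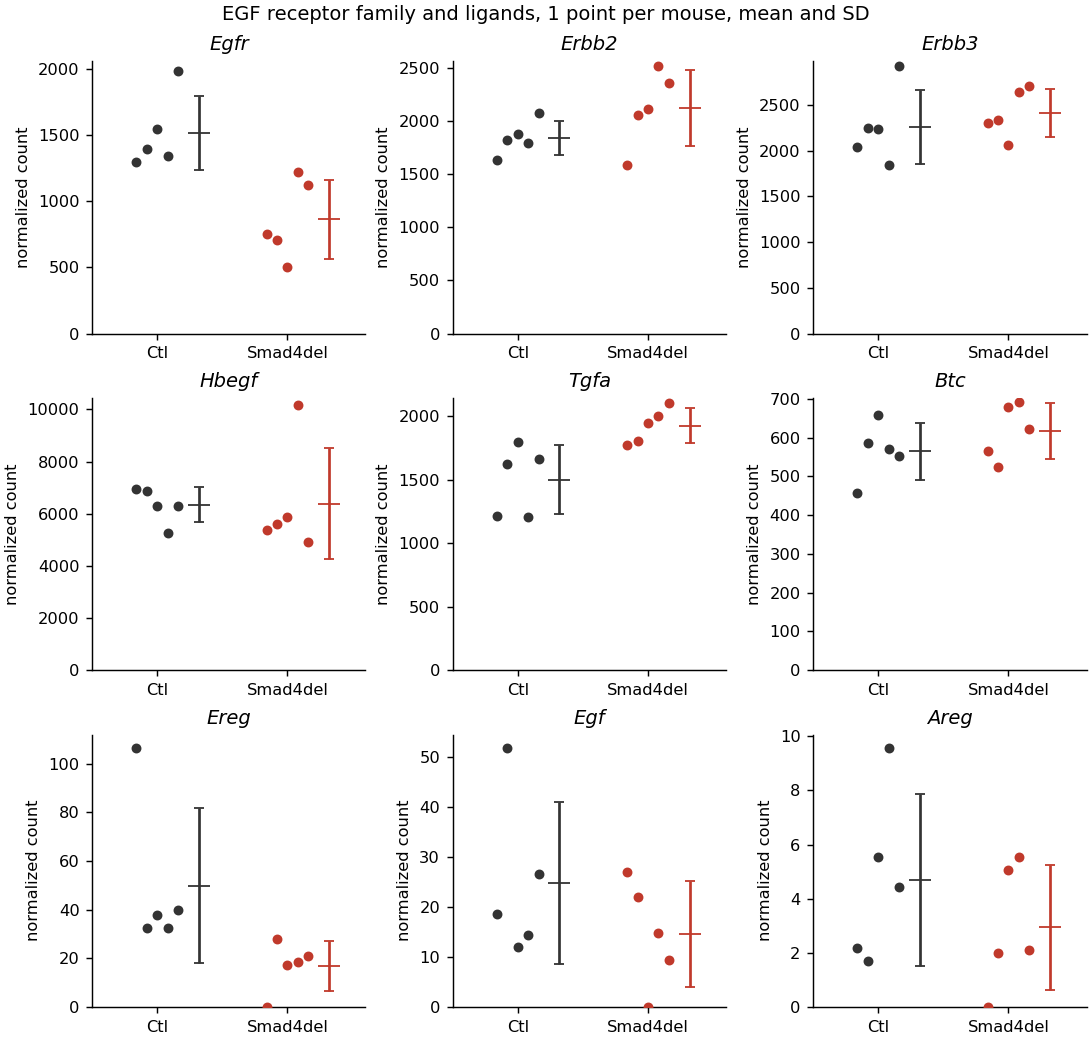
Normalized count (vertical axes, starting at 0) of the 3 receptors and 6 ligands, with 1 point per mouse and, next to the points, mean and SD of 5 Ctl and 5 Smad4del mice. For Egfr the Smad4del mice lie between 504 and 1221 and the Ctl mice between 1297 and 1984, while for Erbb2, Erbb3, Hbegf and Btc the points of the cohorts overlap.

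*Erbb2*, whose product is the shared partner of the family, had 1633, 1818, 1883, 1797 and 2076 normalized counts in *Ctl* mice. In *Smad4del* mice it had 1583, 2056, 2114, 2518 and 2359, so that the lowest and the highest mouse were both *Smad4del*. Its log2 fold change was 0.19 (standard error 0.122, 95% confidence interval -0.07 to 0.46, adjusted p = 0.322 from limma). *Erbb3*, which encodes the neuregulin receptor with the weak kinase, had 2038, 2251, 2240, 1844 and 2927 in *Ctl* and 2302, 2337, 2067, 2645 and 2707 in *Smad4del* mice. The *Smad4del* mice lay within the range of the *Ctl* mice, with a log2 fold change of 0.10 (standard error 0.124, 95% confidence interval -0.17 to 0.37, adjusted p = 0.617 from limma).

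Set against the other receptors of the same mouse, *Egfr* took a smaller share in each *Smad4del* mouse. These shares and ratios were chosen after the values were seen. Those with *Egfr* repeat its lower level, and having several of them lowers their adjusted p. They are not separate support for the call of *Egfr*. Per kilobase of exon, *Egfr* made up 14.9, 14.5, 15.6, 15.4 and 16.5% of the summed level of the 3 receptors in *Ctl* mice. In *Smad4del* mice it made up 8.84, 7.39, 5.61, 10.5 and 9.87%. The spread within *Ctl* was small (15.4% ± 0.751, SD, n = 5) and that within *Smad4del* larger (8.43% ± 1.96, SD, n = 5), and the cohorts did not overlap (exact permutation p = 0.00794, adjusted p = 0.0193 over 17 such measures). The ratio of *Egfr* to *Erbb2* normalized counts was 0.747 to 0.956 in *Ctl* and 0.239 to 0.485 in *Smad4del* mice, and the ratio to *Erbb3* was 0.620 to 0.728 and 0.244 to 0.462. Between *Erbb2* and *Erbb3* the ratio overlapped, with 0.709 to 0.975 in *Ctl* and 0.688 to 1.02 in *Smad4del* mice (exact permutation p = 0.452, adjusted p = 0.481 over the same measures). Against *Epcam*, whose protein the cells were sorted on, *Egfr* was at 0.0529 to 0.0783 in *Ctl* and at 0.0187 to 0.0466 in *Smad4del* mice, with no overlap (exact permutation p = 0.00794, adjusted p = 0.0193).

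**Figure D2:**
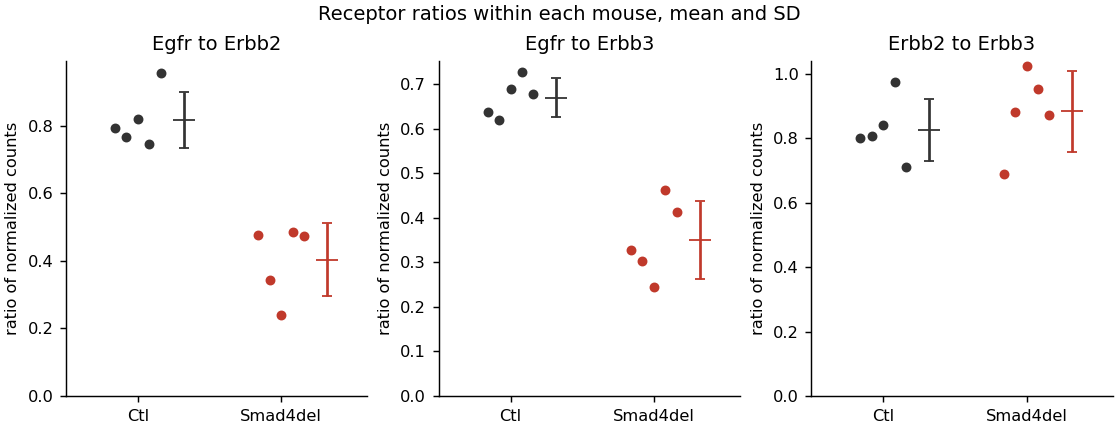
Ratio of normalized counts within each mouse (vertical axes, starting at 0) for Egfr to Erbb2, Egfr to Erbb3 and Erbb2 to Erbb3, each mouse as 1 point, with mean and SD of 5 Ctl and 5 Smad4del mice. Both ratios with Egfr are separate between the cohorts, at 0.747 to 0.956 against 0.239 to 0.485 for Erbb2, while Erbb2 to Erbb3 overlaps.

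The mouse numbers of the labels fall into runs, which the labels do not call batches. Among the 6 mice numbered A5215 to A5221, *Egfr* had a mean of 1411 in 3 *Ctl* and 655 in 3 *Smad4del* mice with no overlap (log2 difference -1.12, exact permutation p = 0.1, the smallest that 3 against 3 allow). Among A5624 to A5628, the 2 *Ctl* mice had a mean of 1663 and the 1 *Smad4del* mouse had 1120 (log2 difference -0.54). Mouse A5447 stood alone in its run. With the run as a term in limma, the log2 fold change of *Egfr* was -0.94 (adjusted p = 0.0183). This fit takes no cohort difference from A5447, the *Smad4del* mouse with the highest *Egfr* level. It therefore does not show that the call holds with that mouse.

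The genes whose deviations from the cohort means went most closely with those of *Egfr* over the 10 mice, among 12541 other genes with a mean of at least 50, were *Patj*, *Zfp568* and *Aak1*. *Patj* encodes a scaffold protein of epithelial cell polarity, *Zfp568* a zinc finger protein and *Aak1* a kinase of clathrin adaptor proteins. Their Pearson r were 0.949, 0.944 and 0.942, and their Spearman rho 0.927, 0.818 and 0.855. These are the highest of many values over 10 libraries and are given as a description, since all genes of a mouse share its library and depth. None of the 3 was called between the cohorts, with log2 fold changes of 0.11 for *Patj*, -0.22 for *Zfp568* and -0.18 for *Aak1* (adjusted p = 0.668, 0.547 and 0.592 from limma).

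Among the 6 ligands, *Hbegf* had the highest level per kilobase of exon in each cohort. *Hbegf* encodes heparin-binding EGF-like growth factor and lies on chromosome 18. *Ctl* mice had 6950, 6886, 6300, 5265 and 6310 normalized counts, and *Smad4del* mice had 5362, 5616, 5893, 10154 and 4937. The *Smad4del* mouse A5447 stood apart from all others, and the other 4 *Smad4del* mice lay between 4937 and 5893. The log2 fold change was -0.03 (standard error 0.172, 95% confidence interval -0.41 to 0.34, adjusted p = 0.922 from limma), and without A5447 it was -0.21 (adjusted p = 0.169 from limma). With the run of mouse numbers as a term in limma it was -0.25 (standard error 0.079, adjusted p = 0.0819). A5447 is alone in its run, so this fit takes no cohort difference from it. The fit without A5447, the fit with the run and the differences within runs are therefore not separate support. Within both runs that hold mice of both cohorts the *Smad4del* mice lay below the *Ctl* mice, with a log2 difference of -0.25 in 3 against 3 mice (exact permutation p = 0.1) and of -0.22 in 1 against 2 (exact permutation p = 0.667). By mean normalized count it was number 384 among the genes of *Ctl* and number 347 among those of *Smad4del* cells.

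*Tgfa*, which encodes transforming growth factor alpha, had 1211, 1626, 1797, 1206 and 1664 normalized counts in *Ctl* mice. *Smad4del* mice had 1772, 1804, 1949, 2002 and 2100. Only the *Ctl* mouse A5221 reached into the range of the *Smad4del* mice. The mean was 1501 ± 274 (SD, n = 5) in *Ctl* and 1925 ± 137 (SD, n = 5) in *Smad4del* cells, a log2 fold change of 0.38 (standard error 0.124, 95% confidence interval 0.11 to 0.65) that did not pass over all genes (adjusted p = 0.0823 from limma). The exact permutation test of *Tgfa* alone gave p = 0.0159. The ratio of *Egfr* to *Tgfa* normalized counts was 0.858 to 1.19 in *Ctl* and 0.259 to 0.610 in *Smad4del* mice, with no overlap (exact permutation p = 0.00794, adjusted p = 0.0193 over the 17 measures). This ratio holds the lower *Egfr* level and is not separate support for a change in *Tgfa*.

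*Btc*, which encodes betacellulin, had 456, 587, 657, 570 and 552 normalized counts in *Ctl* and 566, 523, 680, 691 and 623 in *Smad4del* mice. The cohorts overlapped over most of their range. The log2 fold change was 0.13 (standard error 0.127, 95% confidence interval -0.15 to 0.41, adjusted p = 0.533 from limma).

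*Ereg*, which encodes epiregulin, was low and the second gene of the family whose cohorts did not overlap, which held for 8.09% of all genes tested (4.59% with *Smad4del* lower). *Ctl* mice had 107, 32.3, 37.9, 32.6 and 40.0 normalized counts and *Smad4del* mice had 0, 28.0, 17.2, 18.4 and 20.9, so that *Ctl* A5215 was high and *Smad4del* A5216 had no read. The recovered reads were 34 to 98 in *Ctl* and 0 to 28 in *Smad4del* mice. The log2 fold change was -1.95 (standard error 0.844, adjusted p = 0.161 from limma), with an exact permutation p of 0.00794 for this gene alone. Without A5216 the log2 fold change was -1.06 (adjusted p = 0.152 from limma). A5215 was also the mouse with the highest macrophage marker sum, although the sort took CD45- cells. With the macrophage marker level as a covariate the log2 fold change of *Ereg* was -2.69 (standard error 1.002, adjusted p = 0.136 from limma).

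*Egf* and *Areg* were close to the limit of detection. *Egf* reads numbered 17, 61, 13, 15 and 24 in *Ctl* and 26, 22, 0, 16 and 9 in *Smad4del* mice, with a log2 fold change of -1.15 (standard error 0.861, adjusted p = 0.407 from limma). Without *Smad4del* A5218, which had no *Egf* read, it was -0.32 (adjusted p = 0.761 from limma). *Areg*, which encodes amphiregulin, had 2, 2, 6, 10 and 4 reads in *Ctl* and 0, 2, 5, 6 and 2 in *Smad4del* mice and was not tested. A difference in *Areg* was not detectable at this depth, where a count of 0 allows up to 3 reads.

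**Figure D3:**
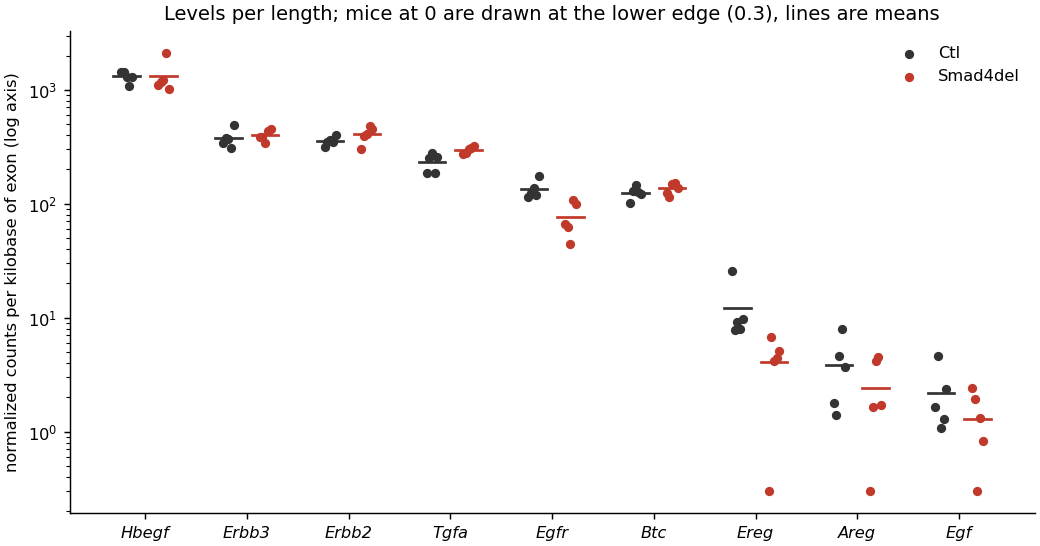
Normalized counts per kilobase of exon (vertical log axis) of the 9 genes in order of their Ctl mean, with 1 point per mouse and a line for the mean of 5 Ctl and 5 Smad4del mice. Hbegf leads with means of 1312 and 1322, and Ereg, Areg and Egf lie far below the other 6 genes.

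Levels of different genes were compared per kilobase of exon. In *Ctl* cells *Hbegf* had 1312 ± 140 normalized counts per kilobase (SD, n = 5), followed by *Erbb3* with 376 ± 67.9, *Erbb2* with 353 ± 30.7, *Tgfa* with 231 ± 42.2, *Egfr* with 133 ± 24.7 and *Btc* with 125 ± 16.0. *Ereg* had 12.1, *Areg* 3.86 and *Egf* 2.19. The ranges of *Erbb3* and *Erbb2* overlapped, as did those of *Egfr* and *Btc* and those of neighbours among the 3 lowest genes. In *Smad4del* cells the order at the top was *Hbegf* with 1322 ± 441 (SD, n = 5), *Erbb2* with 408 ± 68.4, *Erbb3* with 401 ± 43.8 and *Tgfa* with 297 ± 21.1. *Btc* followed with 136 ± 16.0 and *Egfr* with 76.1 ± 26.5, and *Btc* was above *Egfr* in 5 of 5 *Smad4del* mice, against 3 of 5 *Ctl* mice. Of the summed level of the 6 ligands, *Hbegf* made up 74.9 to 81.9% in *Ctl* and 68.5 to 81.7% in *Smad4del* mice (exact permutation p = 0.167, adjusted p = 0.236 over the 17 measures).

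By position, 3 of the ligands are neighbours on chromosome 5 of GRCm38 (GENCODE M21), with *Ereg* at 91074622 to 91093646, *Areg* at 91139599 to 91148432 and *Btc* at 91357261 to 91402994. Their levels were far apart, with *Btc* at 125 and *Ereg* and *Areg* at 12.1 and 3.86 normalized counts per kilobase in *Ctl* cells. *Tgfa* lies on chromosome 6 at 86195223 to 86275719, *Egf* on chromosome 3 at 129677565 to 129755316, *Erbb2* on chromosome 11 at 98412470 to 98437716 and *Erbb3* on chromosome 10 at 128567523 to 128589652. Exons of *Egf*, *Ereg*, *Tgfa* and *Erbb2* overlap exons of genes on the other strand, and the library kit does not keep the strand. The overlap of *Erbb2* is 9 bases with *Mien1*.

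The 6 other genes of the family are the ligands *Epgn* and *Nrg1* to *Nrg4* and the receptor *Erbb4*. Of these, 4 were tested and 1 was called lower, beside the 4.69% of all genes called lower, and 1 call among so few genes says little. The called gene was *Nrg2*, a neuregulin, with 52, 11, 54, 29 and 11 recovered reads in *Ctl* and 3, 0, 0, 5 and 10 in *Smad4del* mice. Its cohorts overlapped after normalization, and its log2 fold change was -3.08 (standard error 0.849, adjusted p = 0.0496 from limma). That call was lost without any 1 of 7 mice (adjusted p of up to 0.118) and in edgeR on 10 mice (0.0783). *Erbb4*, the receptor of neuregulins and of several EGFR ligands, had normalized counts of 0 to 106 in *Ctl* and of 60.8 to 152 in *Smad4del* mice (limma log2 fold change 1.71, adjusted p = 0.307). Without *Ctl* A5221, the mouse at 0, it was 0.51 (adjusted p = 0.389).

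*Nrg1* had normalized counts of 147 to 358 in *Ctl* and of 43.6 to 235 in *Smad4del* mice (limma log2 fold change -0.59, adjusted p = 0.398), and without *Smad4del* A5218 the difference was -0.17 (adjusted p = 0.754). *Nrg4* had 40.3 to 130 and 86.2 to 237 (limma log2 fold change 0.78, adjusted p = 0.193). *Nrg4* shares 368 exon bases with *Fbxo22* on the other strand, whose reads cannot be told apart there. *Epgn* and *Nrg3* had at most 10 and 4 reads in any mouse and were not tested.

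**Figure D4:**
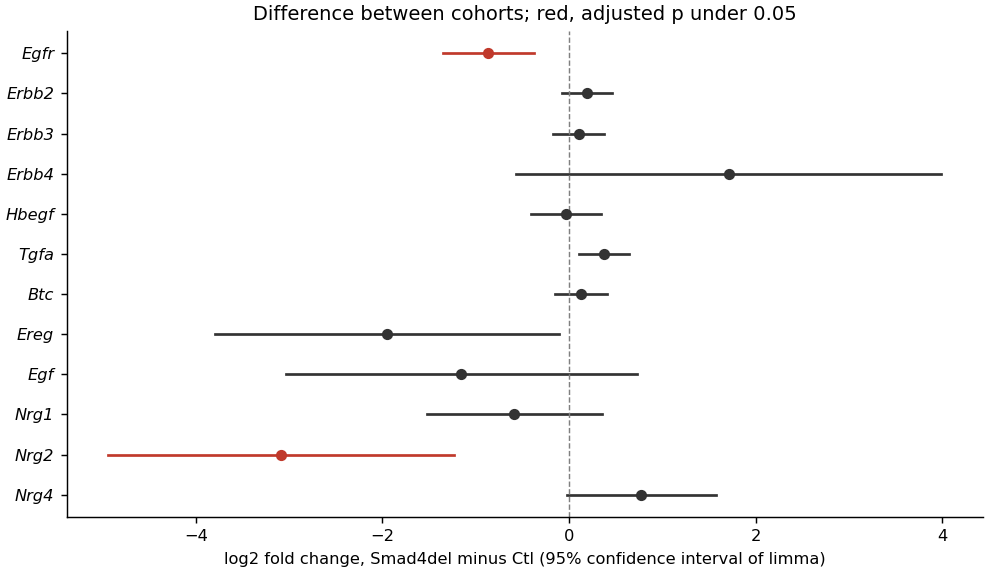
Log2 fold change, Smad4del minus Ctl, with the 95% confidence interval of limma (horizontal axis) for the 8 tested members and 4 other genes of the family, 5 mice per cohort. Red marks an adjusted p under 0.05, which Egfr at -0.87 and Nrg2 at -3.08 reached.

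Genes that act on the family's ligands, receptors and signals were read from 4 lists. Of 16 genes of ligand shedding and trafficking, 15 were tested, 4 were lower, 0 were higher and 11 did not pass, beside the 4.69% of all genes called lower. The median log2 fold change of the list was -0.19, against -0.0050 over all genes tested. *Adam15* had 1339 ± 199 normalized counts in *Ctl* cells and fell to 753 ± 209 (SD, n = 5 per cohort) in *Smad4del* cells (log2 fold change -0.87, limma adjusted p = 0.0248). *Adam19* fell from 128 ± 78.3 to 26.7 ± 22.6 (SD, n = 5 per cohort, log2 fold change -2.43, limma adjusted p = 0.0259). Both encode membrane metalloproteases, and neither overlapped between the cohorts, which held with *Smad4del* lower for 4.59% of all genes tested. Both were named for their small p, which favours such a separation. *Adam10*, which encodes the protease best known for releasing EGF and betacellulin, had 3695 to 5703 in *Ctl* and 2227 to 3399 in *Smad4del* mice (limma log2 fold change -0.59, adjusted p = 0.0345). The other lower gene was *Timp3*, an inhibitor of these proteases, named after its value was seen (-0.75, adjusted p = 0.0462). *Adam17*, whose product releases most EGFR ligands and which was also picked after its value was seen, did not pass (log2 fold change -0.19, limma adjusted p = 0.377). The count of 4 was 0 without A5215, A5626 or A5218, 1 without A5628 or A5217, 2 without A5221 and 2 in edgeR on 10 mice, and 2 with the macrophage marker level as a covariate.

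Of 27 genes of the signal cascade from adaptors to ERK, AKT and STAT3, 1 was lower, 0 were higher and 26 did not pass, beside the 4.69% of all genes called lower, with a median log2 fold change of -0.10. The lower gene was *Stat3*, the gene of a transcription factor activated by receptor signaling, with normalized counts of 5815 to 7404 in *Ctl* and of 4450 to 5864 in *Smad4del* mice (limma log2 fold change -0.41 with a standard error of 0.0943, adjusted p = 0.0248). Its cohorts overlapped only through *Smad4del* A5447 and *Ctl* A5626. *Stat3* lost its call without A5221, A5217 or A5218 (adjusted p = 0.0596, 0.0693 and 0.0634), and without A5221 or A5218 limma called 0 genes of this list. DESeq2 on 10 mice called 4 lower, and limma without A5447 called 1 higher and 1 lower. At an unadjusted p under 0.05, 0 genes of the shedding list and 0 of the cascade were higher, and 6 and 5 were lower. Over all genes tested, 4076 of 14870 were under this p in either direction, and their split by direction was not counted.

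Of 24 inhibitors of the receptors and of their signals, 3 were lower, 0 were higher and 21 did not pass, beside the 4.69% of all genes called lower. A log2 fold change below 0 was found for 20 of the 24 (median -0.34), against 7527 of all 14870 genes tested. These signs come from the same mice and are not separate observations. *Lrig3*, of a family of membrane proteins that act on receptor levels, had normalized counts of 39.2 to 190 in *Ctl* and of 13.2 to 28.0 in *Smad4del* mice (limma log2 fold change -2.05, adjusted p = 0.0185). *Spry4*, which encodes an inhibitor of RAS and ERK signaling, had 361 to 670 in *Ctl* and 152 to 360 in *Smad4del* mice (limma log2 fold change -0.99, adjusted p = 0.0284). *Ptpn12*, a tyrosine phosphatase gene, had 616 to 756 and 354 to 543 (limma log2 fold change -0.54, adjusted p = 0.0292). The cohorts of these 3 genes did not overlap, which held with *Smad4del* lower for 4.59% of all genes tested. The 3 were named for their small p, which favours such a separation. The count of lower calls was 1 without A5215, A5221, A5217 or A5624, 5 without A5447 and 7 in DESeq2 on 10 mice. *Spry1*, another inhibitor of RAS and ERK signaling, was just outside the threshold and was named after its value was seen. It had 986 to 1218 in *Ctl* and 1271 to 1865 in *Smad4del* mice (limma log2 fold change 0.43, adjusted p = 0.05001), and in this list it was the 1 gene that was higher at an unadjusted p under 0.05, while 11 were lower. It was called higher under 9 of 26 alternatives. Over all genes tested, 4076 of 14870 had an unadjusted p under 0.05 in either direction, and their split by direction was not counted.

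Of 20 genes that ERK signaling induces, limma called 0 in either direction. At an unadjusted p under 0.05, 5 were lower and 0 higher, beside 4076 of all 14870 genes in either direction, whose split was not counted. A log2 fold change below 0 was found for 18 of the 20 (median -0.23), against 7527 of all 14870. These signs are not separate observations, since *Ctl* A5215 was highest of its cohort for 12 of the 20 and *Smad4del* A5447 for 13. They were counted with the deposited scaling only. The median over all genes was -0.0050 with it and 0.083 with quantile scaling. DESeq2 on 10 mice called 2 of them lower, edgeR called 0, and limma called 4 lower without A5447 and 4 lower with the mouse number run as a term. A5447 is alone in its run, so neither of these limma fits takes a cohort difference from it. The 2 with the highest levels were *Fos* and *Egr1*, immediate early transcription factors. *Fos* had normalized counts of 59956 to 74882 in *Ctl* and of 47051 to 75660 in *Smad4del* mice (limma log2 fold change -0.19, adjusted p = 0.350). *Egr1* had 54948 to 72152 in *Ctl* and 48832 to 78719 in *Smad4del* mice (limma log2 fold change -0.16, adjusted p = 0.471).

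The lower calls of these lists went with lower endothelial and stellate cell markers in the same mice, whose sums did not overlap between the cohorts. When limma took the endothelial marker level as a covariate, each list had 0 called genes. It then called 0 genes of the whole table, and the targeted *Smad4* lost its call too (adjusted p = 0.0663 from limma). The 0 is therefore not particular to these lists, and the cohort and this level cannot be told apart for them either.

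**Figure D5:**
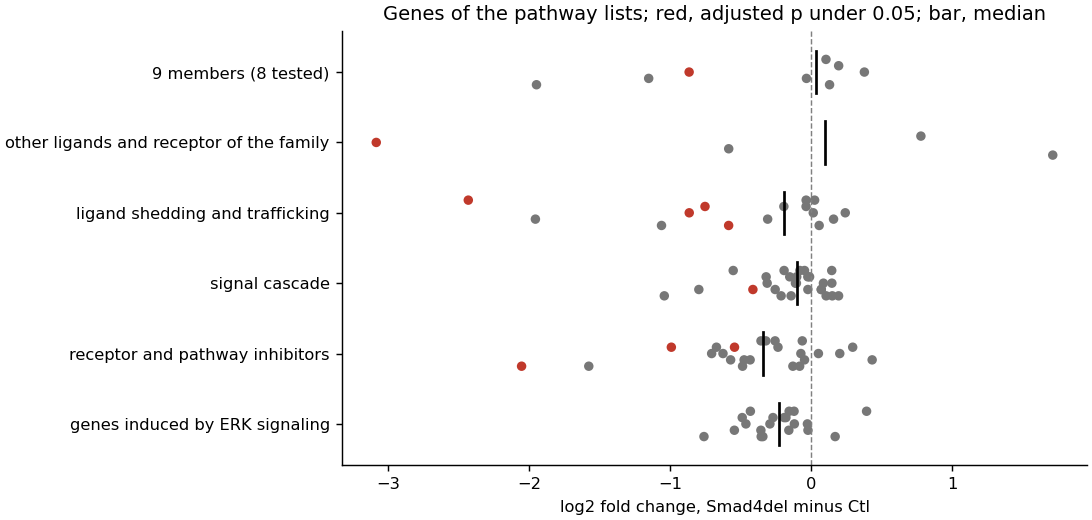
Log2 fold change, Smad4del minus Ctl (horizontal axis), of each tested gene of the family and of 5 related lists, with 1 point per gene, red for an adjusted p under 0.05 in limma, and a bar at the median of the list. Inhibitors and ERK-induced genes lie mostly below 0, with medians of -0.34 and -0.23, and the called genes all lie below 0.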

How the data were processed

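Reactive cholangiocytes of 5 *Ctl* and 5 *Smad4del* mice were analysed as 1 sample per mouse, grouped by the genotype in the labels. For the deposited signal values, which are normalized counts per gene, the authors used Trimmomatic 0.36 for trimming, STAR for alignment to GRCm38.p5, featureCounts for counting and DESeq2 1.14.1 in R 3.3.2 for size factors. The submitters' processing notes also name mm9. The sources used here do not give whether the deposited values count multi-mapping reads.

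Within each mouse 100% of values were whole multiples of 1 step (relative tolerance 1e-06), which gave back the reads. The step of A5217 (0.998) is near 1, where steps alone do not show this, so count tests were run with and without it. Genes with a mean of at least 10 were fitted with limma 3.58.1 in R 4.3.3 on log2(normalized count + 1) with a trended prior, and scripts were tested on simulated data. P-values measure the spread between mice. Alternatives were quantile and median scaling, pseudocounts of 0.5 and 10, a minimum of 50 or none, sample weights, marker levels, *Xist* and the run of mouse numbers as covariates, edgeR 4.0.16 and DESeq2 1.42.0 on recovered reads, and leaving out each mouse. Count tests on 10 mice were added after seeing the data.

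The members and gene lists were chosen with earlier results of these data known. Named are all members, *Smad4*, every gene of a list of up to 6, otherwise up to 3 called genes per direction with the smallest p or, with none called, the 2 with the highest means, and the 3 genes most like a called member. Promoter letters are from the RefSeq table and positions and exon lengths from GENCODE M21.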

Additional observations from a re-analysis of the deposited data

Results flagged for a closer look

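In 2 of 18 groups (9 genes in 2 cohorts), 1 mouse lay further from the others than Dixon's 95% critical value of 0.710 for 5 samples allows, where chance gives about 1 in 20 groups. *Ereg* had 107 normalized counts in *Ctl* mouse A5215, against 32.3 to 40.0 in the other *Ctl* mice (gap over range 0.897). A5215 also had the highest summed macrophage markers (293115 normalized counts, against 14816 to 133249 in the other *Ctl* mice), although the sort took CD45- cells. With the macrophage marker level as a covariate the log2 fold change of *Ereg* was -2.69 (standard error 1.002, adjusted p = 0.136 from limma). Without A5215 the log2 fold change of *Ereg* was -1.64 (adjusted p = 0.305 from limma), against -1.95 with it. *Hbegf* had 10154 normalized counts in *Smad4del* mouse A5447, against 4937 to 5893 in the other *Smad4del* mice (gap over range 0.817). In the same mouse 13 of the 20 ERK-induced genes were at their highest of the *Smad4del* mice, and its macrophage marker sum was the lowest of the 10 mice at 5623. *Ctl* mouse A5215, which had the highest *Hbegf* count of its cohort (6950), was highest of its cohort for 12 of the 20 ERK-induced genes. A5219, with nearly the same *Hbegf* count (6886), was highest for 2. How often a mouse was highest over all genes was not counted, and a link of *Hbegf* to these genes was not tested.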

How the results depend on the processing

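The 362 higher and 697 lower calls moved by over 1.5 times under several alternatives. Higher calls were 209 with no filter, 579 with quantile and 626 with median scaling, and ranged from 105 to 563 when each mouse was left out, while lower calls then ranged from 329 to 852. With the macrophage marker level as a covariate, calls were 152 higher and 401 lower, and with the endothelial level 0 and 0 in limma (737 at an unadjusted p under 0.05). EdgeR without A5217 gave 89 and 265, and DESeq2 on 10 mice 893 and 1290.

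*Egfr* was lower under all 26 alternatives and called under 14 of them. It was not called with no filter (-0.87, adjusted p = 0.0561), with the hepatocyte (-0.83, 0.0658) or endothelial level (-0.22, 0.995) as a covariate, or by edgeR without A5217 (-0.74, 0.139) or on 10 mice (-0.80, 0.0598). Leaving out single mice gave -1.01 to -0.69 and lost the call in 7 of 10 cases. *Smad4* kept its direction and lost its call only with the endothelial level (-1.96, 0.0663), leaving out mice giving -2.02 to -1.87.

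*Hbegf* had the other sign with quantile scaling (0.027), median scaling (0.031), *Xist* (0.054), the hepatocyte (0.070) or endothelial level (0.098), edgeR (0.063 without A5217, 0.021 on 10 mice) and DESeq2 (0.054 and 0.012), and without single mice it ranged from -0.21 to 0.046, never called. With the mouse number run as a term, which takes no cohort difference from A5447, the *Hbegf* log2 fold change was -0.25 (adjusted p = 0.0819 from limma). The endothelial level also turned *Btc* (-0.10), *Nrg1* (1.58), *Nrg2* (0.69), *Adam10* (0.12) and *Adam19* (0.027), and the macrophage level turned *Erbb2* (-0.050) and *Erbb3* (-0.12), none of them called there. *Tgfa* was called higher with *Xist* (0.44, adjusted p = 0.0352) or the hepatocyte level (0.46, 0.0426) as a covariate and stayed above 0 in all 26, at 0.18 (0.404) with the macrophage and 0.17 (0.995) with the endothelial level. *Ereg* was called under 0 of 25 alternatives and *Egf* under 0 of 25. The causes were not tested. No paired analysis was possible because each mouse number occurs in 1 cohort only. *Areg* was too low to test.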
